A study of Mus musculus with 2 samples.

Results

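Among the H3K27me3 islands called in mouse incisor pulp cells that had recently copied their DNA, 2432 lay outside all annotated genes. They were chosen by measured width, height and position: they are the islands on chromosomes 1 to 19 that were 20 kb wide or less, had a summit height under 40, overlapped no gene of any biotype and lay more than 1 kb from any gene end. They made up 2432 of 11341 H3K27me3 islands, or 23.3% of the 10421 islands on the autosomes and 16.2% of their length. They are called gene-free islands here. The islands came from the incisor pulp of CD1 mice aged 5 days, taken 24 h after 1 injection of EdU, a label of newly made DNA, at a dose of 3.3 µg per g. EdU-positive cells were sorted from the pulp, and 1 chromatin immunoprecipitation library was made for H3K27me3 and 1 for H3K4me3. All animals were thus of the same strain, age and treatment, and the labels name no transgene and do not say how many pups were used or whether both libraries came from the same sort. No input library was used for calling, per the series' design text.

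H3K27me3 is the trimethylation of lysine 27 of histone H3 written by Polycomb repressive complex 2, and it is known for silent developmental genes. It often spreads beyond promoters into the sequence between genes, where enhancers of developmental factors lie, and Polycomb-bound sites can be joined by loops over long distances. H3K4me3 marks promoters that are active or poised, and where both marks meet at a promoter the state is called bivalent. Incisor pulp mesenchyme renews itself throughout life, and its stem cells pass through a dividing stage, the transit amplifying cells, before they become odontoblasts and pulp cells.

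The files hold island positions and whole-number summit heights, and since no read counts come with them the sequencing depth is unknown. Heights are comparable within a mark only. Each mark had 1 library, so differences could not be set against a spread between replicates and none was tested. The 95% intervals on shares are Clopper-Pearson (exact binomial) ones, which take in counting over islands or genes and nothing else. Neighbouring islands are not independent of each other. In a bulk library, a weak island from few cells and a low level of the mark in many cells cannot be told apart. An H3K4me3 island lay within 1 kb of a gene end at 7 of 7 dental mesenchyme markers (Msx1, Pax9, Lhx6, Lhx8, Barx1, Twist1 and Prrx1), at 4 of 4 dental epithelium markers, 1 of 4 endothelial markers (Kdr), 1 of 4 blood markers (Cd68), 2 of 4 glia and nerve markers and 0 of 3 odontoblast markers (Dspp, Dmp1 and Phex). H3K27me3 lay at all 7 of these dental mesenchyme genes and at 3 of the 4 epithelial ones as well. The part of other cell types in the gene-free islands was not tested.

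The genes on either side set the scene for these islands, so the promoters of some of them are shown. By the way they were chosen, the islands hold no annotated gene start. Each sequence runs 5′ to 3′ from 250 bases before to 50 bases after a gene start, from RefSeq (GRCm38.p6, the assembly called mm10), with every CG in capitals, which reads the same on both strands. Of genes with several starts in that table the most upstream listed one was taken, which can lie inside the gene's annotated span. It lay within 1 kb of the annotated 5′ end at 1007 of the 1140 nearest genes with an entry (88.3%), and it lay 521 bp inside that end at Mctp2, 965 bp at Ajap1 and 34 bp at Tex29. CG is the site of DNA methylation, and Polycomb complex 2 is known to be found at unmethylated CG-rich promoters. Mctp2 (chr7:72306546-72306845, minus strand) and Ajap1 (chr4:153482781-153483080, minus strand) are the first among the genes nearest to the most gene-free islands, of those with an entry in the RefSeq promoter table, whose promoter was itself under H3K27me3. Tex29 (chr8:11840271-11840570, plus strand) is the first whose promoter was not.
Mctp2: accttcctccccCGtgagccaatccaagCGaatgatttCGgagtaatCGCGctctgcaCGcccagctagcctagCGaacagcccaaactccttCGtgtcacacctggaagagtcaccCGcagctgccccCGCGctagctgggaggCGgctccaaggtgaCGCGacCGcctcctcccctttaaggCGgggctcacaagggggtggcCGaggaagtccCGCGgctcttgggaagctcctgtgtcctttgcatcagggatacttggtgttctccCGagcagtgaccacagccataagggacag
Ajap1: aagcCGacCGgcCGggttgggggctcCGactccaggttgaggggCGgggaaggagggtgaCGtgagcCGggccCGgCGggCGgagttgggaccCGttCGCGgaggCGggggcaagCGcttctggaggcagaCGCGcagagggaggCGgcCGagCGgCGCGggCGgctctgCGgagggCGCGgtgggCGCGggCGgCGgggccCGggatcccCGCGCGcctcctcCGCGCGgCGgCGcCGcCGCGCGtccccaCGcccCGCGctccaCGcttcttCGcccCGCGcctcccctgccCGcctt
Tex29: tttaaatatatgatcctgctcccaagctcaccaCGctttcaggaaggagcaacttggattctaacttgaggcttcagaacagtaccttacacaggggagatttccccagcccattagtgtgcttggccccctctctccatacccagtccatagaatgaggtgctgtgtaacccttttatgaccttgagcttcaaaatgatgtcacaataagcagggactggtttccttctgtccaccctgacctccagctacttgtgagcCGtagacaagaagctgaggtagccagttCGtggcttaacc
The CG count of these 300 bases was 20 for Mctp2, 51 for Ajap1 and 3 for Tex29. The promoters of Mctp2 and Ajap1 were also under H3K4me3, and that of Tex29 was not. Over the 1140 nearest protein-coding genes with an entry in that table the median was 19 CGs (interquartile range 8 to 28), against 14 (4 to 25) over all 16457 protein-coding genes with an entry on the autosomes. At least 1 CG was present in 98.9% of the nearest genes' promoters and in 95.04% of all. Of the nearest genes' promoters, 36.3% were under H3K27me3, against 16.9% of all. The nearest genes' promoters under H3K27me3 had a median of 20 CGs, against 18 for all promoters under H3K27me3.

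Gene-free islands were narrow and weak. Their median width was 5.20 kb (interquartile range 3.999 to 7.20 kb) and their median height 10 (9 to 13). The 6444 other islands within the same limits of width and height, which overlap a gene or lie within 1 kb of one, had a median width of 5.80 kb (4.40 to 8.20 kb) and a median height of 12 (10 to 18). Among them, the 254 within 1 kb of a gene had medians of 4.60 kb and 10. The 2415 inside a protein-coding gene and more than 1 kb from its ends had 5.60 kb and 11. The limits of the choice touch these values, so they are a description. Of the gene-free islands, 697 (28.7%) reached 13, the median height of all autosomal H3K27me3 islands, 185 (7.61%) reached a height of 20, and 241 (9.91%) were wider than 10 kb. Summits lay at a median of 49.0% of the island's width from its lower coordinate.

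The values next to each limit were close on both sides. The widest gene-free islands were 19.999 kb, and 45 islands that met the other limits were wider, from 20.2 kb up. There were 5 gene-free islands at a height of 39, and 20 islands were kept out by height alone, of which 2 stood at 40. The gene-free island closest to a gene lay 1008 bp from it, and of the 254 islands kept out by distance alone the farthest lay at 998 bp.

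Of the 5 widest gene-free islands, 3 stood at the Iroquois cluster of chromosome 8, whose factors pattern limb, heart and nervous system. An island of 19.999 kb with a height of 27 (chr8:92054801-92074799) lay between Irx3, 253 kb away, and Irx5, 283 kb away. Islands of 19.6 kb with a height of 27 (chr8:92476601-92496199) and 19.8 kb with a height of 21 (chr8:92534201-92553999) lay between Irx5 and Irx6. The other two were an island of 19.999 kb (height 27, chr8:117989001-118008999) 131 kb from Cdh13, which encodes T-cadherin, and one of 19.6 kb (height 27, chr7:131871801-131891399) that ended 0.801 kb from a broad island on chromosome 7, between Bub3 and Gpr26.

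The 5 with the highest summits, all at 39, lay on 4 chromosomes. One was 10.4 kb from Grik3, a glutamate receptor gene (chr4:125724601-125733999). Another was 26.8 kb from Casz1, a zinc finger factor gene of heart and nerve (chr4:148766001-148777599), and 6.40 kb from a broad island. One more stood 112 kb from Nkx6-1, a homeobox gene of pancreas and spinal cord (chr5:101533201-101547199). The remaining ones lay between 4930519L02Rik and Lmo4 (chr3:143098201-143109999) and between Cdk1, the mitotic kinase gene, and Ank3 (chr10:69394201-69404399), and both overlapped H3K4me3. Their H3K4me3 summits were 12 and 57.

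Distance to genes was short for most of these islands. The nearest gene of any biotype lay at a median of 12.8 kb (interval 12.1 to 13.7 kb, interquartile range 5.54 to 28.5 kb), and the nearest protein-coding gene at 33.5 kb (10.9 to 111 kb). Within 5 kb of a gene were 551 islands (22.7%), another 458 (18.8%) lay up to 10 kb away, 1126 (46.3%) between 10 and 50 kb, 220 (9.05%) between 50 and 100 kb and 77 (3.17%) farther. From the nearest protein-coding gene, 654 (26.9%) lay more than 100 kb away. The nearest gene was a long noncoding RNA gene for 1001 islands (41.2%), a class that makes up 26.4% of annotated autosomal genes. It was protein-coding for 959 (39.4%, against 43.9% of genes) and a pseudogene for 325 (13.4%, against 18.9%). Shares of gene counts are not the shares of gene-free sequence nearest to each class, which were not measured.

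**Figure D1:**
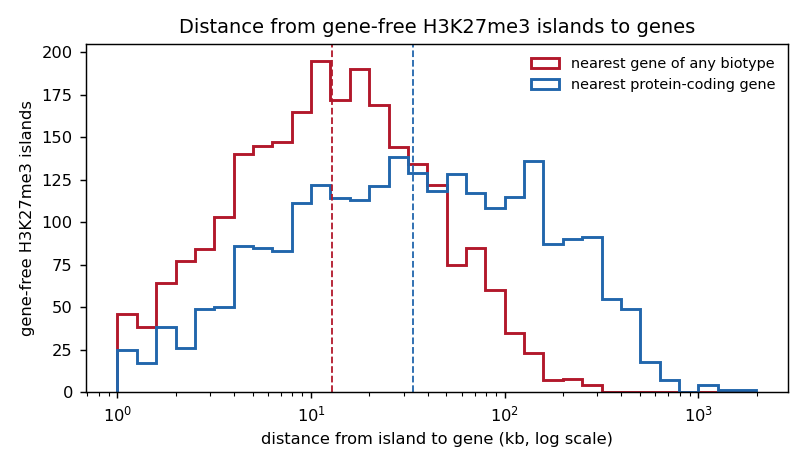
Histogram of the distance from each of the 2432 gene-free H3K27me3 islands to the nearest gene of any biotype (red) and the nearest protein-coding gene (blue), in kb on a log axis. Dashed lines mark the medians of 12.8 and 33.5 kb, and the left edge is the limit of 1 kb set by the choice of islands.

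Where the strand of the nearest protein-coding gene could be read from the promoter table, the island lay on the promoter side at 1038 of 1893 islands (54.8%, interval 52.6 to 57.1%). Within 10 kb of the gene it did so at 272 of 451 (60.3%, 55.6 to 64.9%), and farther out at 766 of 1442 (53.1%, 50.5 to 55.7%). The last interval reaches down almost to an even division between the promoter side and the far side.

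The islands farthest from any gene stood in gene deserts. At 298 kb an island of 9.20 kb with a height of 14 (chr13:39264201-39273399) lay between Slc35b3 and Ofcc1. A row of 3 islands on chromosome 5, of 10.2, 7.399 and 3.80 kb with heights of 23, 22 and 8, ran from chr5:133150001 to 133177999 and lay 282 to 297 kb from any gene. Their nearest protein-coding gene was Auts2, a neurodevelopmental gene, 607 to 631 kb away. An island of 10.4 kb with a height of 17 (chr11:112413201-112423599) lay 359 kb from Sox9, the gene of a factor of cartilage and neural crest.

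Whether deserts as such held more islands was read from the stretches between genes. On the autosomes 1193 Mb lay more than 1 kb from any gene, in 27898 stretches, and gene-free islands covered 1.24% of it at 2.04 per Mb. Stretches of 10 to 30 kb held 2.92 islands per Mb, those of 30 to 100 kb 3.40, those of 100 to 300 kb 1.86 and those of 300 kb or more 0.404. The density was thus lowest in the longest stretches. A gene-free island was present in 1619 stretches, and 48 of these with 5 or more islands held 299 islands.

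On the chromosomes the islands were unevenly spread. Chromosome 19 held 3.83 gene-free islands per Mb of gene-free sequence, followed by chromosome 11 with 3.09 and chromosome 2 with 3.04, and chromosome 3 held 0.940, chromosome 10 1.05 and chromosome 16 1.17. Chromosome 19 was also the densest for the other islands of the same limits, with 8.12 per Mb of the remaining sequence, against 3.53 to 6.98 on the other autosomes. As a share of each chromosome's H3K27me3 islands, the gene-free ones ranged between 16.5% on chromosome 10 and 30.5% on chromosome 13. The median height was 10 or 11 on each of the 19 autosomes.

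Within chromosomes the islands lay towards the end with high coordinates, which on mouse autosomes is the end away from the centromere. Of the gene-free islands, 521 (21.4%) lay in the part with the lowest coordinates when the annotated span was cut into 3 equal parts, 729 (29.98%) in the middle part and 1182 (48.6%) in the highest, or 1.23, 1.82 and 3.21 islands per Mb of gene-free sequence. The other islands of the same limits leaned the same way, with 23.9%, 32.4% and 43.6%. The highest part was the densest for gene-free islands on 12 of 19 autosomes, and the lowest the sparsest on 10.

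**Figure D2:**
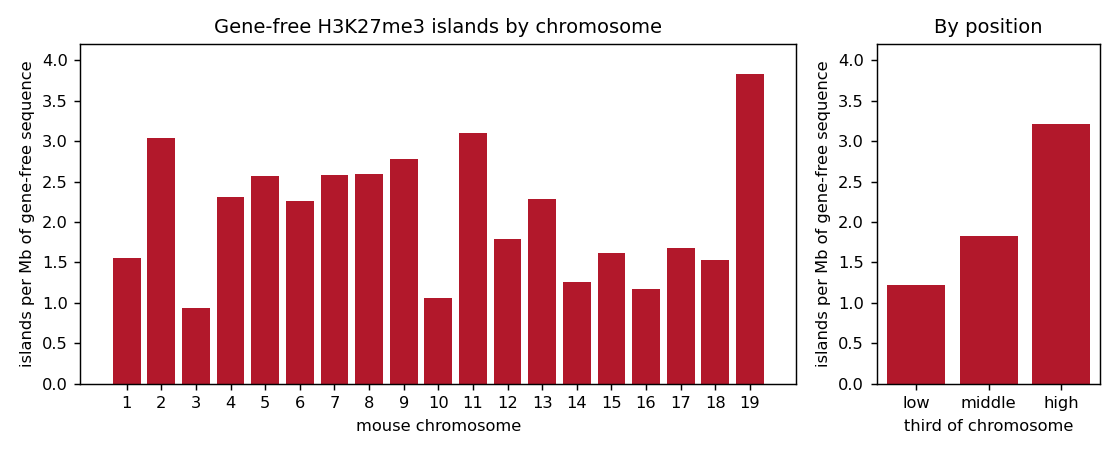
Gene-free H3K27me3 islands per Mb of sequence more than 1 kb from any gene, for each of 19 autosomes (left) and for 3 equal parts of the annotated span over all autosomes, from low to high coordinates (right). The values range from 0.940 on chromosome 3 to 3.83 on chromosome 19, and from 1.23 in the low part to 3.21 in the high part.

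H3K4me3 was rare on gene-free islands. An H3K4me3 island overlapped 100 of the 2432 (4.11%, interval 3.36 to 4.98%), where over all autosomal H3K27me3 islands the share was 36.1%. The other islands of the same limits had it at 2521 of 6444 (39.1%, 37.9 to 40.3%). Islands deep inside protein-coding genes, more than 1 kb from both ends of that gene, had it at 400 of 2415 (16.6%, 15.1 to 18.1%). The ends of other genes overlapping or near them were not checked. The share was lower on gene-free islands than on the other islands on 19 of 19 autosomes, at 1.29 to 10.3% against 32.0 to 48.1%. Shared sequence came to 1.33% of the gene-free length and 15.9% of the length of the other islands. The nearest H3K4me3 island lay at a median of 52.1 kb from a gene-free island and 9.80 kb from the other islands. The islands were chosen away from genes and H3K4me3 is a mark of gene starts, so the lower share and the choice of islands cannot be told apart.

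The share with H3K4me3 was greatest at the highest H3K27me3 summits in both sets. Among gene-free islands it was 2.65% at heights of 6 to 8, 2.32% at 9 to 10, 3.10% at 11 to 13, 5.36% at 14 to 19 and 16.2% at 20 to 39 (30 of 185, interval 11.2 to 22.3%). Among the other islands it was 17.9%, 24.2%, 32.9%, 47.8% and 66.6% in the same classes. The gene-free islands were lower in each class. For the 697 gene-free islands with a height of 13 or more it was 8.18%.

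**Figure D3:**
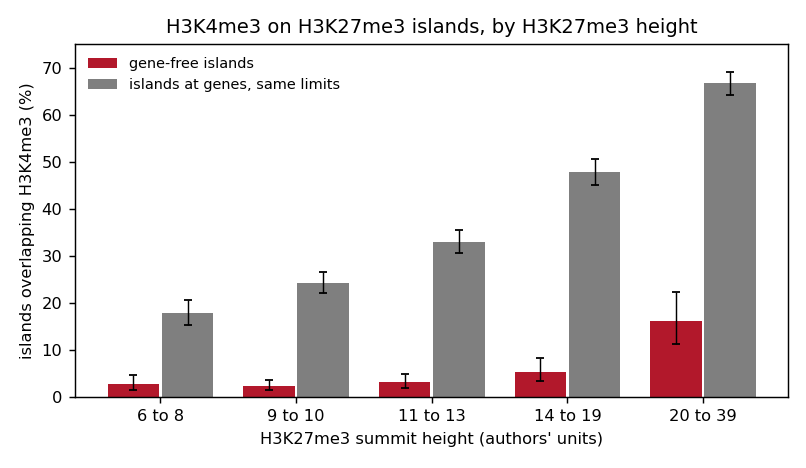
Percent of H3K27me3 islands that overlap H3K4me3 by at least 1 bp, by class of H3K27me3 summit height in the authors' units, for gene-free islands (red) and for islands at genes within the same limits (grey). Error bars are exact binomial 95% intervals, and the shares run from 2.32 to 16.2% in gene-free islands and from 17.9 to 66.6% in islands at genes.

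The H3K4me3 that did meet these islands was lower and narrower than that on the other H3K27me3 islands. The 103 H3K4me3 islands concerned had a median height of 23 (interquartile range 15 to 46.5) and a median width of 2.20 kb, against 63 (28 to 112) and 2.999 kb for those on the other H3K27me3 islands. All autosomal H3K4me3 islands had medians of 93 and 3.599 kb. Of the 103, 64 lay wholly inside a gene-free H3K27me3 island and 10 also reached into a gene. The 100 gene-free islands with H3K4me3 were 6.80 kb wide at the median and 7.44 kb from a gene, against 5.20 and 13.3 kb for the 2332 without it. Of the 604 autosomal H3K4me3 islands that were themselves more than 1 kb from any gene, 92 (15.2%) overlapped a gene-free H3K27me3 island. The median height of these 604 was 18 (13 to 31), against 23 for the 103. The 103 include these 92 and the 10 that reach into a gene, and the height of the 92 alone was not measured.

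The highest H3K4me3 summits over gene-free islands lay within a few kb of a gene. The highest, at 212, was an H3K4me3 island of 7.60 kb that shared 3.998 kb with a gene-free island of height 8 (chr2:30464801-30470999), 1.63 kb from the immediate early gene Ier5l. Others stood 1.05 kb from Prdm4 (181), 1.16 kb from Pbx3, a homeobox cofactor gene (178), and 1.66 kb from Igf1r, the receptor gene for insulin-like growth factor (178). The H3K4me3 island of height 183 at chr14:115040001-115045799 shared 0.599 kb with a gene-free island 3.07 kb from Mir17, a microRNA gene of a growth-promoting cluster. The H3K27me3 heights at these 5 places were 8 to 14.

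Broad H3K27me3 islands, those over 20 kb, were next set beside the gene-free ones. Of the 2432, 646 (26.6%, interval 24.8 to 28.4%) lay within 100 kb of one, where 20.2% of all autosomal islands within the limits did. The other islands of the same limits did so at 1147 of 6444 (17.8%, 16.9 to 18.8%), and those deep inside protein-coding genes at 22.9% (21.2 to 24.6%). Median distances were 439 kb for gene-free islands and 816 kb for the other islands. The gene-free share was the higher one on 17 of 19 autosomes, the exceptions being chromosomes 3 and 12. It was also higher in each class of height, at 22.8 to 29.2% against 14.01 to 20.4%. Counted to islands over 40 kb only, 8.59% of gene-free islands lay within 100 kb.

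Many islands lay close to another H3K27me3 island. No pair of islands lay closer than 801 bp, and 645 gene-free islands (26.5%) had their next H3K27me3 island of any kind within 2 kb, against 19.5% of the other islands. The next island was another gene-free one for 1224 (50.3%), an island overlapping a gene for 770 (31.7%) and a broad island for 206 (8.47%). Leaving out islands with a neighbour within 2 kb in both sets, 20.8% of 1787 gene-free islands (interval 18.96 to 22.8%) and 14.1% of 5189 other islands (13.2 to 15.1%) lay within 100 kb of a broad island.

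**Figure D4:**
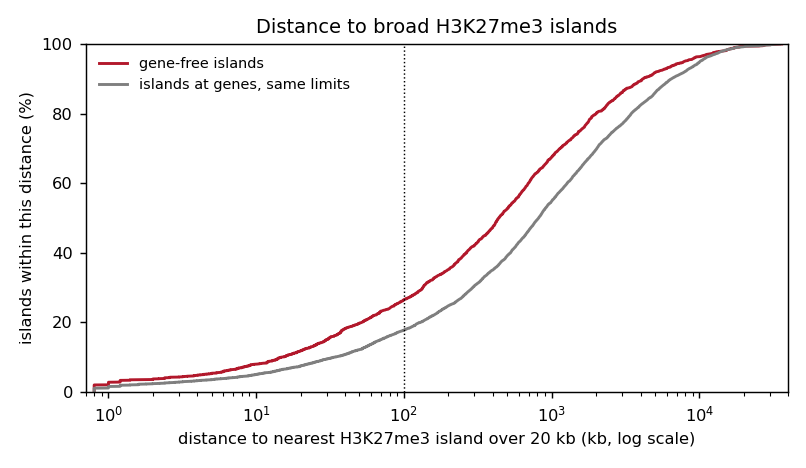
Cumulative percent of islands within a given distance, in kb on a log axis, of the nearest H3K27me3 island over 20 kb, for gene-free islands (red) and islands at genes within the same limits (grey). At the dotted line of 100 kb the curves stand at 26.6 and 17.8%.

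Median height and width were close at all distances from a broad island. Gene-free islands within 20 kb of a broad island had a median height of 11 and a median width of 5.60 kb, and those more than 1000 kb away 10 and 5.20 kb. H3K4me3 was present on 2.44% of the first (interval 0.986 to 4.96%) and 5.45% of the second (3.97 to 7.27%), and these intervals overlap. In between it was on 2.51% at 20 to 100 kb, 2.99% at 100 to 500 kb and 6.09% at 500 to 1000 kb. Of the 648 broad autosomal islands, 307 (47.4%) had a gene-free island within 100 kb that had no nearer broad island, and 86 had 3 or more. Among the 122 broad islands without a protein-coding gene 91 had one (74.6%), and among the 526 with a protein-coding gene 216 did (41.1%). Gene-free islands were chosen away from genes, so this difference and the choice of islands cannot be told apart.

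The broad islands with the most gene-free islands around them were mostly free of protein-coding genes themselves. The first, of 23.2 kb (chr4:153295801-153318999, height 15), had 10 within 100 kb, with heights of 6 to 20, and lay 54.2 kb from Ajap1, an adherens junction gene. The broad island on Lhx2, a LIM homeobox gene of eye, forebrain and hair (chr2:38330401-38384999, 54.6 kb, height 98), had 8, which lay 2.001 to 33.8 kb from it with heights of 7 to 14. The others with 8 each lay on chromosome 7 (chr7:73112801-73144799), 231 kb from Rgma, on chromosome 8 (chr8:12134201-12177399) beside A230072I06Rik, and on chromosome 11 (chr11:84687601-84707999), between Lhx1 and Mrm1. H3K4me3 met none of the gene-free islands counted for these 5 broad islands.

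Clusters were formed by joining gene-free islands within 50 kb of the next. In clusters of 2 or more were 1343 islands (55.2%, interval 53.2 to 57.2%), in 464 clusters, and 1089 stood alone. The other islands, clustered among themselves in the same way, did so at 56.1%, so the share lies near that background, though the other islands are more numerous. Clusters of 5 or more numbered 50 and held 347 islands (14.3%, against 14.4% of the other islands). Of the islands in these large clusters 54.2% lay within 100 kb of a broad island, against 27.5% in smaller clusters and 16.9% of lone islands. H3K4me3 lay on 3 islands in large clusters (0.865%), 33 in smaller ones (3.31%) and 64 lone islands (5.88%). Median distances to a gene were 26.4 kb in large clusters and 8.64 kb for lone islands. Islands were chosen away from genes, so a large cluster needs room between genes. This difference in distance and the choice of islands cannot be told apart. When only the 697 gene-free islands with a height of 13 or more were kept and clustered among themselves, 32.0% lay in clusters. Lower islands were left out of that count, so it is not the share of higher islands in the clusters above.

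The largest cluster lay on chromosome 8 around the protein-coding gene A230072I06Rik, which had 37.0 kb of H3K27me3 at an end. It held 24 gene-free islands over 418 kb (chr8:11889601-12307599), which covered 193 kb of it. Most of them lay 0.801 to 1.201 kb from the next H3K27me3 island, near the smallest spacing of 801 bp. The number of islands in a cluster thus depends on how close neighbours are joined. Heights ran between 8 and 38 with a median of 11, and the widest islands were 18.4 kb (chr8:11986201-12004599, height 22) and a pair of 17.999 kb (chr8:11908601-11926599, height 38, and chr8:12289601-12307599, height 26). No H3K4me3 island lay in the span. There were 4 other H3K27me3 islands in it, of which 2 were broad. On its low side Tex29, 33.8 kb away, had neither mark at its ends, and on its high side Sox1, a factor gene of neural progenitors 87.9 kb away, had both. The nearest protein-coding gene was Tex29 for 16 gene-free islands and A230072I06Rik for 8.

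The next 4 clusters by number of islands follow, with the protein-coding genes on each side. Between Lrig1, which encodes a negative regulator of growth factor receptors, 36.7 kb away, and Kbtbd8, a gene of neural crest specification, 91.7 kb away, 15 islands covered 101 kb of 289 kb (chr6:94737001-95026199, heights 8 to 19). Between Mctp2, 709 kb away, and Rgma, a co-receptor gene of BMP signalling, 82.9 kb away, 14 islands covered 99.2 kb of 276 kb (chr7:73016201-73292599, heights 7 to 17). Between Nphp4, 610 kb away, and Ajap1, 7.02 kb away, 11 islands covered 92.6 kb of 193 kb (chr4:153172801-153366199, heights 6 to 20), with no gene of any biotype in the span. Between Mrm1, 19.3 kb away, and Lhx1, a LIM homeobox gene of head and kidney, 83.9 kb away, 11 islands covered 68.2 kb of 184 kb (chr11:84609401-84793799, heights 9 to 20). Of these 8 flanking genes, Mrm1 and Nphp4 had no H3K27me3 at their ends and the others did. None of the islands in these 5 clusters overlapped H3K4me3. Spacings of 0.801 to 1.201 kb to the next H3K27me3 island were common in these 4 clusters as well.

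**Figure D5:**
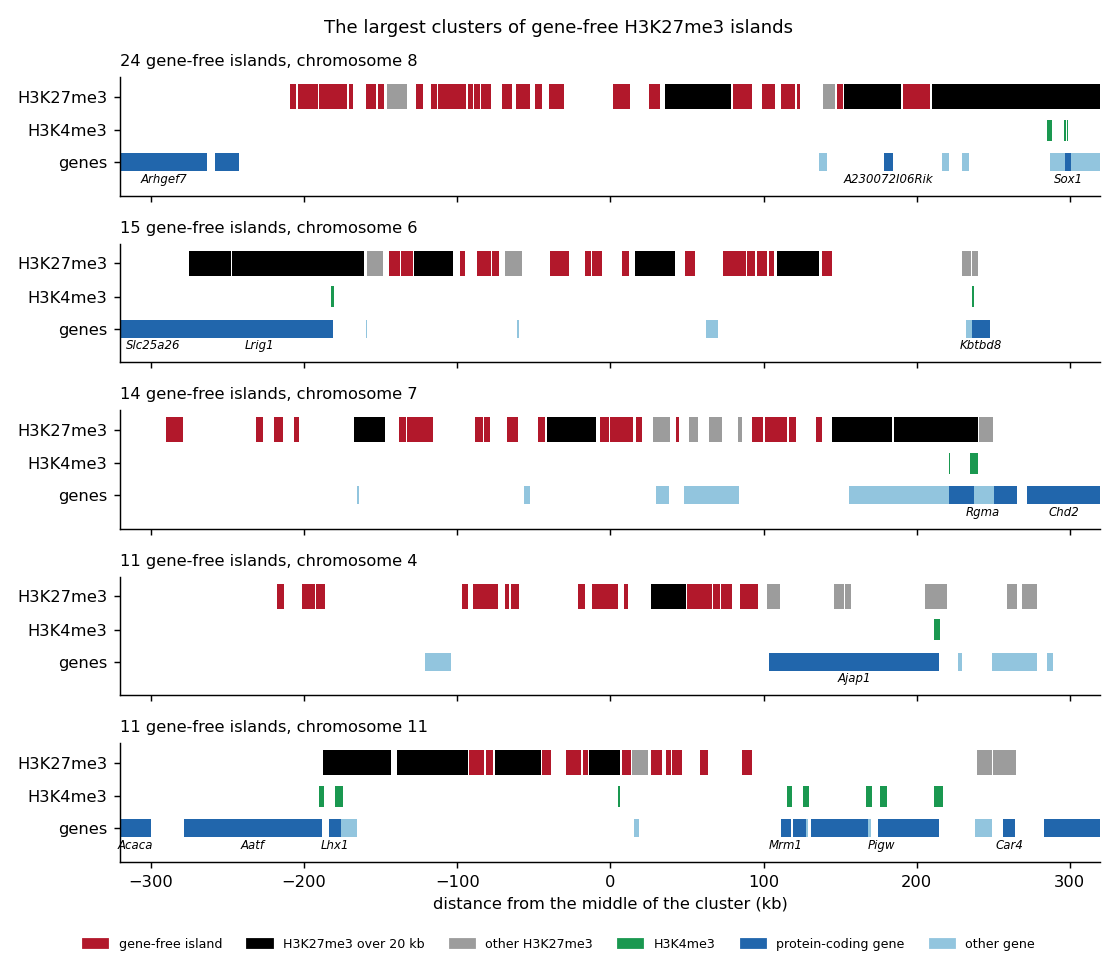
Maps of the 5 largest clusters, each drawn to scale around its middle with distance in kb. Red boxes are gene-free H3K27me3 islands, black boxes H3K27me3 islands over 20 kb, grey boxes other H3K27me3 islands, green boxes H3K4me3 islands, dark blue boxes protein-coding genes (names where space allows) and light blue boxes other genes, and the clusters hold 24, 15, 14, 11 and 11 gene-free islands.

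Of the 5 single stretches between genes with the most islands, those beside A230072I06Rik and Ajap1 lay within or across the clusters above and the others did not. A stretch of 271 kb near A230072I06Rik on chromosome 8 held 16 islands, 206 kb next to Ajap1 held 11, 311 kb between Irx5 and Irx6 held 11, 323 kb that began 17.2 kb from Mctp2 held 10 and 164 kb between the homeobox gene Nkx1-1 and Fam53a held 8. Stretches of 155 kb between Mn1 and Cryba4 on chromosome 5 and of 170 kb between Sall3 and Galr1 on chromosome 18 also held 8, and the first by position was taken.

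The protein-coding genes nearest to gene-free islands often carried H3K27me3 at their own ends. Of 1448 distinct nearest genes 679 (46.9%, interval 44.3 to 49.5%) had an H3K27me3 island within 1 kb of an end, where 22.4% of all 20665 autosomal protein-coding genes did. H3K4me3 was at an end of 1053 (72.7%), where 59.7% of all genes had it. Both marks were at 525 (36.3%), against 16.8% of all, and neither at 241 (16.6%), against 34.7%. Either end of a gene counted, here and for the single genes named. The marks can thus lie at opposite ends, and these are not counts of bivalent promoters. Of genes nearest to 1 island 42.8% carried H3K27me3, of those nearest to 2 to 4 islands 54.6%, and of the 71 nearest to 5 or more 64.8% (52.5 to 75.8%). Of the 654 islands more than 100 kb from a protein-coding gene, 58.6% had a nearest gene with H3K27me3, against 45.1% of the 570 within 10 kb. These last shares count islands, so a gene nearest to several islands is counted several times.

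Stretches between genes of like length gave the same order. In stretches of 10 to 30 kb, a protein-coding gene with H3K27me3 came next on either side at 74.6% of those with a gene-free island and 36.3% of those without. In stretches of 30 to 100 kb the shares were 76.0% and 45.4%, in those of 100 to 300 kb 76.3% and 60.1%, and in those of 300 kb or more 75.9% (interval 62.4 to 86.5%) and 62.9% (58.6 to 67.0%). A protein-coding gene with H3K4me3 also came next on either side more often at stretches with a gene-free island than at those without. In stretches of 10 to 30 kb the shares were 88.5% and 67.0%, and in those of 30 to 100 kb 92% and 75.6%. In stretches of 100 to 300 kb they were 91.6% and 83.8%, and in those of 300 kb or more 94.4% and 82.6%. The higher shares were thus not particular to H3K27me3. The H3K27me3 at gene ends comes from the same library as the gene-free islands.

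The genes nearest to the most islands were of several kinds. Mctp2, which encodes a membrane protein with C2 domains, and Rgma were nearest to 18 each, at 86.7 to 723 kb and 82.9 to 501 kb. At an end of Mctp2 lay an H3K27me3 island of 5.60 kb (height 14) and an H3K4me3 island of 1.40 kb, and at Rgma ones of 54.6 kb (height 71) and 0.999 kb. Tex29 was nearest to 16 and had neither mark, and Ajap1 was nearest to 14, with an H3K27me3 island of 14.2 kb (height 71) and an H3K4me3 island of 4.40 kb. Next, beside Bcl11b, came the predicted genes Gm44812 and Gm52008 (12 each), with H3K27me3 only, and Cryba4, a lens crystallin gene (11), likewise. Mgmt, a DNA repair gene, and Rragc, which encodes a GTPase of nutrient sensing, were nearest to 11 each and had H3K4me3 only. Lrig1 and the proliferation marker gene Mki67 (9 each) had both marks, Lrig1 under 86.2 kb of H3K27me3 and Mki67 under 10.4 kb with a height of 9. A230072I06Rik, first by name of 5 genes nearest to 8 each, had H3K27me3 only.

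Among the listed genes, regulators of other lineages were nearest to the most islands. The 129 such genes found on the autosomes, 0.624% of protein-coding genes, were nearest to 162 gene-free islands (6.66%, interval 5.70 to 7.73%) and nearest to or overlapped by 2.87% of the other islands. Of the list, 54 genes were a nearest gene, and 53 of those 54 carried H3K27me3 at an end, where 121 of the 129 did. H3K4me3 was at an end of 88 of the 129. The median distance was 101 kb, 83 of the 162 islands lay within 100 kb of a broad island and 2 overlapped H3K4me3. Bcl11b, a zinc finger factor gene of T cells and tooth epithelium, was nearest to 12 islands (heights 6 to 21), Sall3 to 10 (8 to 18), Irx5 to 9 (8 to 27) and Lhx2 to 7 (7 to 14). Their own H3K27me3 islands were 19.2, 23.8, 37.2 and 54.6 kb wide and their H3K4me3 islands 6.60, 12.6, 8.80 and 0.799 kb. The gene lists differ in length. Shares of gene counts are not the shares of gene-free sequence nearest to each list, which were not measured.

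Factors of dental and cranial mesenchyme, a shorter list, were nearest to fewer islands. The 44 genes, 0.213% of protein-coding genes, were nearest to 36 gene-free islands (1.48%, interval 1.04 to 2.04%), against 0.776% of the other islands, and 26 of the 36 lay within 100 kb of a broad island. Of the 13 genes concerned 12 carried H3K27me3, where 40 of the 44 did. Pitx1, which acts in hindlimb and jaw, was nearest to 7 islands at 14.8 to 83.0 kb, and its own H3K27me3 island was 38.4 kb wide with a height of 98. The TALE homeobox gene Meis1 and the neural crest gene Pax3 were nearest to 5 each, with 37.2 and 93.6 kb of H3K27me3. Foxf1 was nearest to 4, at 101 to 145 kb.

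Secreted signals and their antagonists (87 genes) were nearest to 20 gene-free islands (0.822%), against 0.791% of the other islands, and all 15 genes concerned carried H3K27me3, where 72 of the 87 did. Among them were Bmp7, with 3 islands at 75.01 to 133 kb, and Fgf5, Rspo3 and Wnt7b, ligand genes of the FGF, R-spondin and Wnt families, with 2 each. The 84 neural adhesion and guidance genes were nearest to 26 (1.07%), fewer by share than among the other islands (1.96%). Cdh13 had 6 of these, Epha4, an ephrin receptor gene, 3, and Dscam and Ntm, both cell adhesion genes of neurons, 2 each. The 43 cell cycle and replication genes were nearest to 12 (0.493%), against 0.248%. Of these 9 belonged to Mki67, and Ccne1, Cdk1 and Cdkn2a had 1 each. The 1104 olfactory receptor genes, 5.34% of protein-coding genes, were nearest to 10 (0.411%), against 0.0931% of the other islands, and the 354 vomeronasal receptor genes to 0 of 2432, which allows a share of up to 0.152% by the upper bound of the exact interval. Olfr161 had 4 of the 10, at 323 to 355 kb, and Olfr1339, Olfr1373 and Olfr282 had 1 each.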

How the data were processed

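H3K4me3 and H3K27me3 were profiled in EdU-positive incisor pulp cells, 1 library each. BWA, SICER and the build mm10 are named per the submitters' processing notes. Versions and settings: not given in the sources used here. The authors deposited 1 track of islands and 1 track of summits per mark, per the file headers, and the score of each summit is a height in whole numbers, of unknown scaling. Depth is unknown. Widths of all 11341 H3K27me3 islands were 1 bp short of a multiple of 200 bp. Signal tracks were not used here. No input was used, so the mark and differences in mappability or copy number cannot be told apart.

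Gene positions came from a RefSeq table of GRCm38.p6 (47042 autosomal genes, 20665 protein-coding). Distances were counted between nearest ends, overlap needed at least 1 bp, and positions are 1-based. Distances, overlaps and clusters were computed with Python 3.11.15, numpy 2.4.6, pandas 2.3.3 and scipy 1.17.1 and checked on simulated intervals. Samples were grouped by the antibody target in the labels. With 1 library per mark no test was run. The members, lists and rules for named genes were chosen with earlier results of these data known. The rule named the 5 widest, highest and most distant islands, the 5 leading clusters, broad islands, stretches and H3K4me3 overlaps, the 15 genes nearest to most islands and up to 4 genes per list. Comparisons of stretches between genes, parts of chromosomes, height classes, sides of genes, promoter CG counts and next islands were added after seeing the files. All 7 marker genes of dental mesenchyme and those of the 5 other marker lists were found in the table. Alternatives varied the limits on gene distance, biotype, height, width, chromosome, overlap, broad islands, clusters and gene windows.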

Additional observations from a re-analysis of the deposited data

How the results depend on the processing

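Of 57 alternative values, 24 moved by more than the counting interval or, for the number of islands, by more than 1.5 times. The number of gene-free islands was 697 when a height of at least 13 was asked for and stayed within 1.5 times otherwise. The H3K4me3 share was 6.15% when protein-coding genes alone had to be avoided, 8.18% at the height of 13 or more and 5.35% with H3K4me3 within 1 kb. The median gene distance was 14.9 and 18.3 kb with limits of 2.5 and 5 kb, 32.3 kb avoiding protein-coding genes alone, 14.8 kb at the greater height and 33.5 kb to protein-coding genes. The share near broad islands was 29.4% at the greater height, 8.59% for islands over 40 kb, and 19.8% and 39.02% within 50 and 250 kb. The share in clusters was 61.7% avoiding protein-coding genes alone, 32.0% at the greater height, 51.3% for widths up to 10 kb, 50.4% with islands within 1 kb joined first, and 45.2% and 64.0% with gaps of 25 and 100 kb. Clusters were formed anew from the islands that each alternative kept. The share with H3K27me3 at the nearest gene was 55.0% with the 5 kb limit and 59.1% with windows of 2.5 kb. Without islands that had a neighbour within 2 kb, an alternative chosen after seeing the data, the share near broad islands was 20.8%, in clusters 38.9% and at the nearest gene 48.1%. The cause was not tested. No paired analysis was possible because there was 1 library per mark.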

Other observations

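The nearest gene was a microRNA gene at 14 gene-free islands. Mir146, a regulator of inflammation, lay 9.94 kb from an island of height 11 (chr11:43384401-43388199), and Mir138-1 36.5 kb from one of height 11 (chr9:122641601-122646399). Mir137, a neural microRNA gene, lay 185 kb from an island of height 8 (chr3:118243201-118248999). The highest of the 14 summits, at 37, stood 12.5 kb from Mir8110 (chr8:89002401-89012199). These examples were chosen after their values were seen.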
